A study of Rattus norvegicus with 30 samples.

Results

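Rat hepatocytes that had been in 500 µM acetaminophen for 48 h were compared with hepatocytes that had been in it for 24 h. The comparison took the 10 arrays of 30 whose titles name 500 µM and one of these times, 5 arrays at 48 h and 5 at 24 h. The cells were cryopreserved primary hepatocytes of male Sprague Dawley rats from a commercial supplier. They were plated on collagen, overlaid with Matrigel and dosed on day 3 of culture, and each array held the RNA of 1 well. Besides 500 µM at 48 h and at 24 h, the groups used here are 5000 µM acetaminophen at 48 h and at 24 h and the 1% DMSO vehicle at 48 h and at 24 h, with 5 arrays each. DMSO is given as the solvent of the chemical dosing solutions too. Per the protocol the wells were independent cultures of a purchased cell stock, so p-values here reflect how wells varied, not how animals did. The wells of the 2 times are different wells, and anything else that differed between the harvests cannot be told apart from time.

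Acetaminophen is an analgesic that hepatocytes clear mainly by glucuronidation and sulfation. A smaller share is oxidised by cytochrome P450 enzymes to a reactive quinone imine, which glutathione traps. Hepatocytes in culture also lose part of their liver-specific expression with time, the cytochrome P450 genes among the first, whether or not a compound is present. Vehicle wells over the same interval are therefore given beside the 500 µM values.

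The values are MAS5 signals, the brightness of each probe set after the authors' scaling of the arrays. Each gene was read from its brightest probe set, and the brightest 60% of the named genes, 8531 of 14217, were tested. A change is the mean log2 signal at 48 h minus that at 24 h, with its standard error, and was called where limma gave a p under 0.05 after Benjamini-Hochberg adjustment over all genes tested (n = 5 arrays per group). A log2 change of 1 is a doubling.

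After 48 h in 500 µM acetaminophen, hepatocytes had less RNA of a number of cytochrome P450 genes, plasma protein genes and interferon-induced genes than after 24 h, such as Cyp2c13, Serpina6 and Isg15. They had more RNA of a number of genes for fatty acid synthesis and desaturation, such as Fasn and Fads1, of the peroxisomal enzyme Ehhadh and of a set of matrix, growth factor and cytoskeletal genes. In limma 1668 of the 8531 genes were called, 19.6%, of which 997 (11.7%) were higher and 671 (7.87%) lower at 48 h. Most changes were small: 30 of the called genes differed by 2-fold or more, 12 higher and 18 lower. For 890 called genes all 5 arrays of one time lay beyond all 5 of the other, 494 higher and 396 lower at 48 h. Arrays of the 2 times did not overlap for 982 of all genes tested, 11.5%, with 48 h above for 6.32% and below for 5.19%. The split depended on how the arrays were put on 1 scale. It was 997 higher and 671 lower with the deposited scaling (59.8% higher), 632 and 988 when each array was centred on its median (39.0% higher), and 798 and 825 after quantile normalisation (49.2% higher). The median signal of the tested genes was 0.06 higher at 48 h on the log2 scale.

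A measure of RNA quality or labelling did not stay constant over the arrays. It was read from the β-actin control probe sets as the log2 of the 3' signal over the 5' signal, a ratio that rises when the 5' part of transcripts is under-represented. This ratio was 1.78, 1.81, 1.98, 2.00 and 1.74 on the 48 h arrays at 500 µM, against 2.02, 1.74, 1.75, 1.26 and 1.28 on the 24 h arrays. All 5 arrays at 48 h and 3 of 5 at 24 h lay above the widest gap between the 30 arrays, from 1.54 to 1.74, and replicates 4 and 5 at 24 h lay below it. The means were 1.86 ± 0.12 at 48 h and 1.61 ± 0.33 at 24 h (SD, n = 5), a difference of 0.25 that did not exceed the spread between arrays (exact two-sided permutation test, p = 0.183, adjusted p = 0.243). Without replicate 1 at 24 h the difference was 0.35 (exact permutation p = 0.0238), and the GAPDH control ratio differed by 0.11 (exact permutation p = 0.0397, adjusted p = 0.0794). In vehicle the ratio was 1.24 ± 0.11 at 48 h and 1.78 ± 0.24 at 24 h (SD, n = 5), a difference of -0.53 in the other direction (exact permutation test, p = 0.00794, adjusted p = 0.0238), and 5 against 5 arrays allow no smaller p. At 5000 µM it was 1.21 ± 0.05 at 48 h and 1.37 ± 0.22 at 24 h (SD, n = 5; exact permutation p = 0.0556).

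With this ratio as a covariate 766 genes were called at 500 µM (8.98% of those tested), 434 higher (5.09%) and 332 lower (3.89%), of which 739 were among the 1668. With only the arrays above the gap 312 were called (3.66%), 162 higher (1.9%) and 150 lower (1.76%), of which 301 were among the 1668. Of the 30 called genes with 2-fold changes, 28 were called with the covariate and 28 above the gap. Leaving out 1 array lowered the count by more than 1.5 times in 3 cases: to 980 without replicate 5 at 24 h, to 1022 without replicate 4 at 24 h and to 1086 without replicate 3 at 48 h. The part of RNA quality or labelling in the calls that were lost was not tested.

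**Figure D1:**
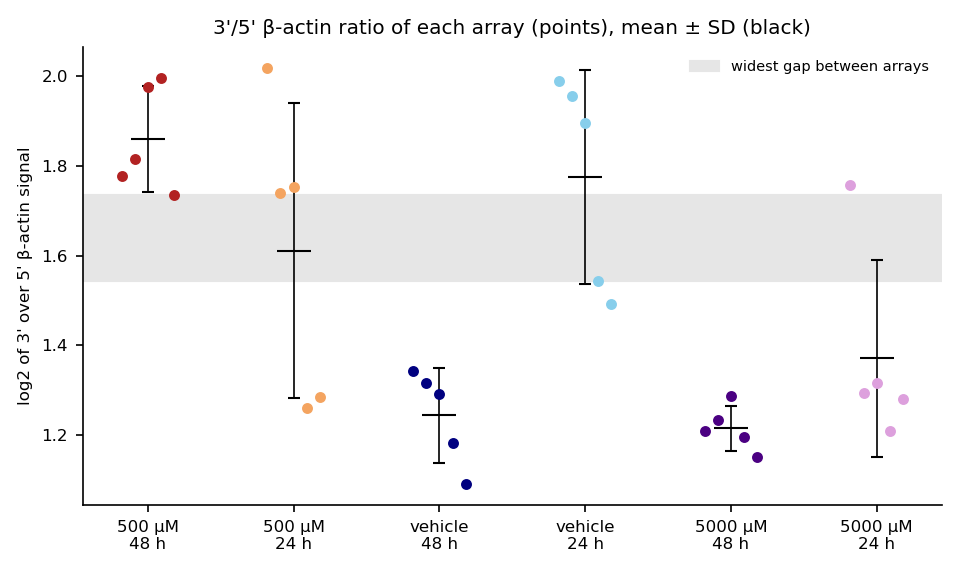
The vertical axis is the log2 of the 3' over the 5' signal of the β-actin control probe sets on each array (points), with the mean and SD of 5 arrays in black, for the 6 groups along the horizontal axis. The grey band is the widest gap between the 30 arrays, from 1.54 to 1.74, with all 5 arrays of 500 µM at 48 h above it and all 5 of vehicle at 48 h below it.

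Cytochrome P450 genes were among the largest falls. Cyp2c13, a P450 that adult male rat livers express and female livers do not, had signals of 2748, 3203, 3196, 2976 and 3012 on the 48 h arrays, against 7560.3, 7949, 8293, 7571 and 8349 on the 24 h arrays. Every 48 h array lay below every 24 h array, and the change was -1.39 ± 0.08 (adjusted p = 8.54e-15 in limma). Cyp2c11, the main male-specific steroid hydroxylase of rat liver, had 4615, 5168, 4489, 6289 and 6602 at 48 h, against 12399.7, 12888, 11579, 15518 and 12161 at 24 h, again without overlap (-1.26 ± 0.12, adjusted p = 3.35e-09 in limma). Cyp1a2, an aryl hydrocarbon receptor target that can oxidise acetaminophen, had 3191, 4198, 4830.1, 4456 and 2929 at 48 h, against 9309.6, 9747, 9732, 8616 and 8518 at 24 h. The 2 times did not overlap, and the change was -1.25 ± 0.12 (adjusted p = 4.62e-09 in limma).

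Cyp2e1, the P450 best known for making the reactive quinone imine of acetaminophen, had signals of 3808, 5548, 5463, 5075 and 4886 at 48 h, against 7943, 8440.2, 8522, 9165 and 9075 at 24 h. All 48 h arrays lay below all 24 h arrays, and Cyp2e1 fell to 4956 ± 697 at 48 h, against 8629 ± 501 at 24 h (SD, n = 5), a log2 change of -0.81 ± 0.11 (adjusted p = 1.79e-06 in limma). Cyp2c23, an arachidonic acid epoxygenase (-1.15 ± 0.10), Cyp2c7 (-1.01 ± 0.08), Cyp3a2, a male-type steroid 6β-hydroxylase (-0.98 ± 0.08), and Cyp3a9 (-0.87 ± 0.09) fell too, each with 48 h arrays all below the 24 h arrays. Nr1i3, which encodes the xenobiotic receptor CAR, fell by 0.43 on the log2 scale (SE 0.09, adjusted p = 6.28e-04 in limma). Cyp3a23-3a1, the PXR target, was not called: its signals were 65748, 75359, 56443, 65282 and 64083 at 48 h, against 66021, 59844, 63830.2, 67667 and 75035 at 24 h, and the change was -0.03 ± 0.08.

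Of the 31 tested genes that oxidise, glucuronidate or sulfate acetaminophen or belong to those enzyme families, 3 were called higher and 7 lower at 500 µM, with a median change of -0.05 against 0.03 over all genes tested. Of the 19 CAR, PXR and AhR targets tested, 2 were called higher and 6 lower. Over all genes tested 11.7% were called higher and 7.87% lower, so the share of these targets called higher was near that of all genes. In vehicle none of the 19 was called higher and 9 lower, and of the 31 none higher and 8 lower. Values of the conjugating enzymes were mixed. Sult1a1, the main phenol sulfotransferase, had signals of 70510.0, 84471, 65772, 70259 and 66797 at 48 h, against 70361, 68489, 67531, 71065 and 78950.1 at 24 h, and its change was 0.00 (adjusted p = 0.988 in limma). Ugt2b10, a glucuronosyltransferase, rose: its signals were 3777, 3768, 4007, 4192 and 4217 at 48 h, against 2802, 2555, 2942, 2579 and 2625 at 24 h, without overlap (0.56 ± 0.07, adjusted p = 2.17e-06 in limma). Gstm7, a glutathione transferase, rose by 0.44 on the log2 scale (SE 0.10).

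The P450 falls stood beside changes of like size in vehicle. Over the same interval the vehicle change was -1.59 ± 0.08 for Cyp2c13, -1.03 ± 0.12 for Cyp2c11, -1.45 ± 0.12 for Cyp1a2 and -0.87 ± 0.11 for Cyp2e1, all called in limma. For these 4 genes the test of the difference between 500 µM and vehicle gave adjusted p from 0.15 to 0.77, so no difference was detectable with these arrays. For Cyp2e1 that difference was 0.06 ± 0.15. Of the 8 P450 genes named as falling, the difference from vehicle was called for Cyp3a2, whose fall was smaller at 500 µM (-0.98) than in vehicle (-1.33; difference 0.34 ± 0.12, adjusted p = 0.0211 in limma), a call lost after quantile normalisation and after median centring. Nr1i3 also differed, at -0.43 at 500 µM against 0.01 in vehicle (difference -0.45 ± 0.12, adjusted p = 0.00474 in limma).

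**Figure D2:**
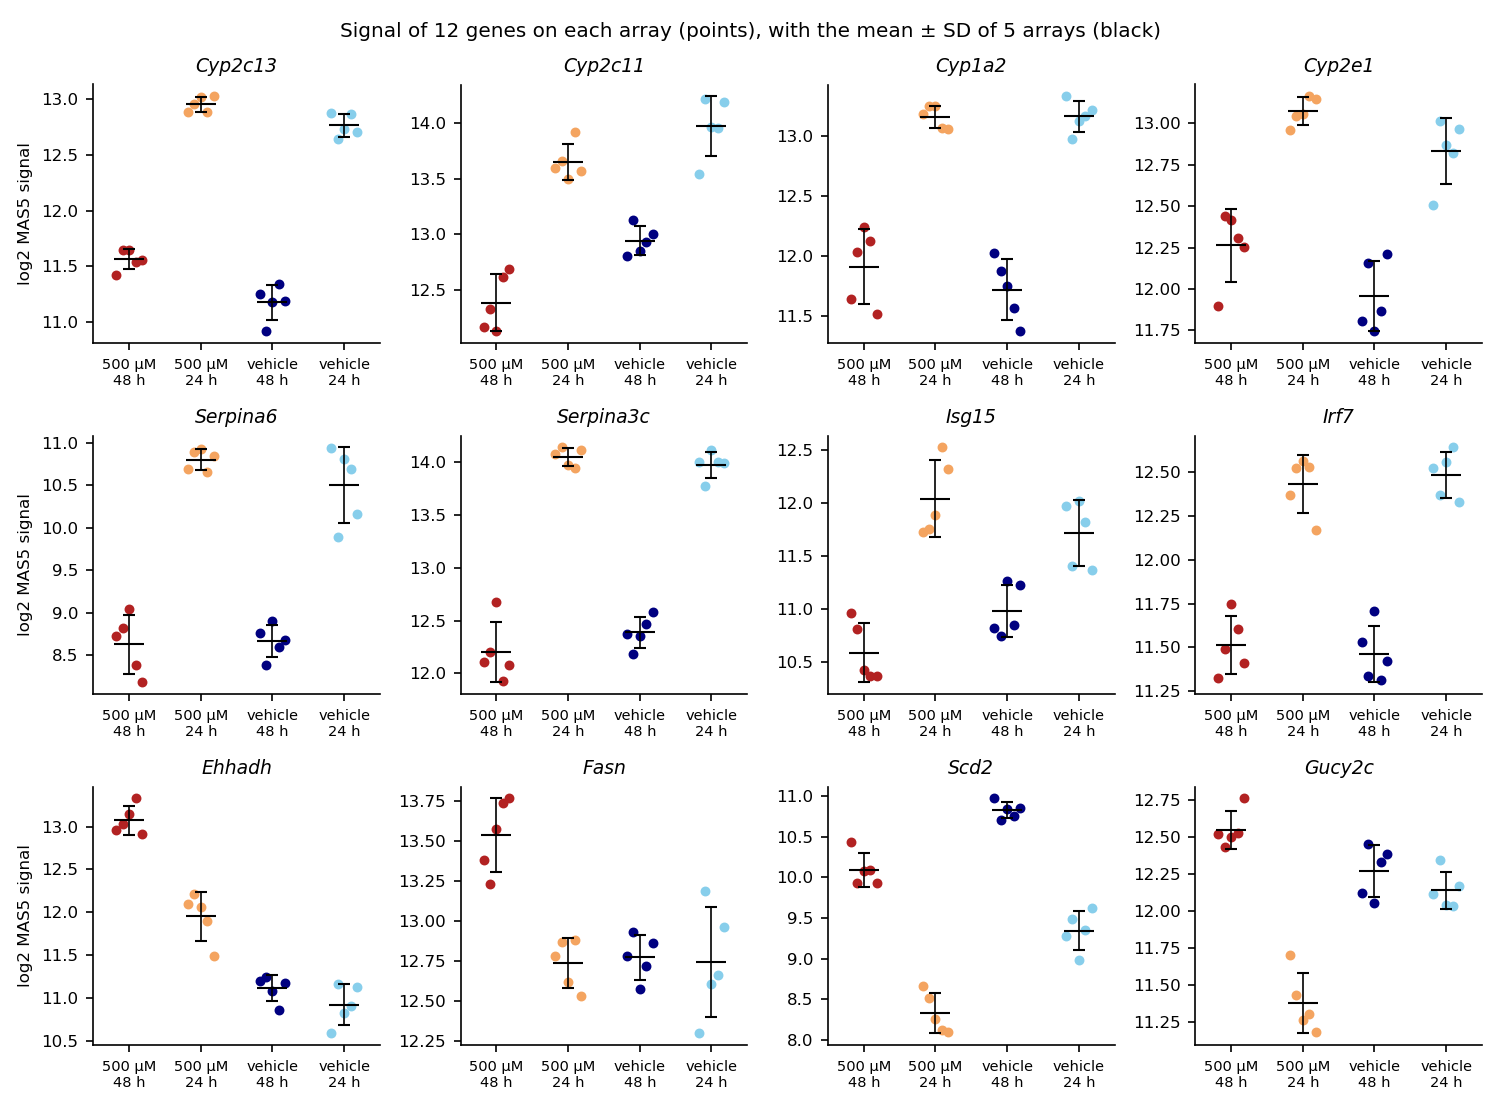
Each panel gives the log2 MAS5 signal (vertical axis) of 1 gene on each array (points), with the mean and SD of 5 arrays in black, for 500 µM at 48 and 24 h and vehicle at 48 and 24 h along the horizontal axis. Cyp2c13, Cyp2c11, Cyp1a2, Cyp2e1, Serpina6, Serpina3c, Isg15 and Irf7 lie lower at 48 h at both 500 µM and vehicle, while Ehhadh, Fasn and Gucy2c are higher at 48 h at 500 µM and were not called in vehicle. Scd2 is higher at 48 h in both.

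Serpina6, one of the largest falls among the called genes, encodes corticosteroid-binding globulin, a plasma protein made by hepatocytes. Its signals were 424, 452, 527, 334 and 291 at 48 h, against 1652, 1898, 1952, 1621 and 1834 at 24 h. Every array at 48 h lay below every array at 24 h, and the change was -2.17 ± 0.19 (adjusted p = 3.11e-10 in limma). At 48 h 4 of the 5 signals lay below 469, the lowest mean signal of a gene tested, so Serpina6 entered the test through its brighter arrays and the size of its change is less certain; with 50 added to each signal it was -2.04. Serpina3c, a secreted serine protease inhibitor of rat liver, had 4429, 4709.8, 6539.9, 3899 and 4333 at 48 h, against 17215, 18031, 16034, 15701 and 17757 at 24 h (-1.85 ± 0.10, adjusted p = 8.71e-15 in limma). The related Serpina3l (-1.32 ± 0.07), the Kazal-type inhibitor gene Spink1l (-1.34 ± 0.10) and the rat urinary protein gene Rup2 (-1.13 ± 0.07) fell as well, each without overlap. For Rup2, 2 further probe sets were called in the same direction (-1.62 and -1.89) and a dim one was not (-0.25). Serpina genes and rat urinary proteins form families of near-identical copies, so a probe set may read more than 1 of them.

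Of the 47 secreted plasma protein genes tested, 1 was called higher and 14 lower, beside 11.7% and 7.87% of all genes, and the median change was -0.06. Apoa2, an apolipoprotein of high density lipoprotein, had 23023, 24152, 22569.8, 22344 and 23234 at 48 h, against 40239, 41828, 36198, 45498 and 42698 at 24 h, without overlap (-0.84 ± 0.07, adjusted p = 1.11e-10 in limma). Afm, a vitamin E-binding relative of albumin (-0.73 ± 0.09), and Vtn, the adhesion protein vitronectin (-0.51 ± 0.06), fell. Alb was not among them: the albumin signals were 52956, 61573, 48627, 48328 and 48615 at 48 h, against 51909.8, 53725, 41993, 44526 and 58270.1 at 24 h, and the change was 0.06 ± 0.12 (adjusted p = 0.764 in limma). The 2 times overlapped for Alb. In vehicle 17 members of this list were called lower and 1 higher, and 13 members were called in the same direction at 500 µM and in vehicle.

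Of the 6 tested genes whose proteins form the complement membrane attack complex, named after their values were seen, C6, C8b, C8g and C9 were called lower, while C5 (0.18) and C8a (0.24) were not called. C8g had 11510.4, 11199.8, 11632, 11823 and 11085 at 48 h, against 19406, 19989, 22847, 22142 and 20593 at 24 h (-0.87 ± 0.07, adjusted p = 1.56e-10 in limma). C6 fell by 0.89 on the log2 scale (SE 0.10) and C9 by 0.67 (SE 0.09), and for all 3 genes the 48 h arrays lay below the 24 h arrays. C8g and C6 were called in vehicle too, with smaller changes (-0.37 ± 0.07 and -0.36 ± 0.10), and for both the difference from vehicle was called (-0.51 ± 0.10, adjusted p = 4.41e-04, and -0.53 ± 0.15, adjusted p = 0.00622, in limma). A2m, the acute phase protease inhibitor α2-macroglobulin, had 25394, 30976, 30922, 21290.0 and 18636 at 48 h, against 45972, 51237, 45679, 30109 and 45042 at 24 h, so that 1 array at 24 h lay within the range of the 48 h arrays (-0.78 ± 0.14, adjusted p = 2.21e-04 in limma). For C9 and A2m the difference from vehicle was not called. Of the 35 acute phase, complement and fibrinogen genes tested, 3 were called higher and 11 lower, with a median of -0.10, beside 11.7% and 7.87% of all genes tested. In vehicle 3 of the 35 were called higher and 18 lower, with a median of -0.21. The difference from vehicle was called higher at 500 µM for 10 and lower for 4, and 9 were called in the same direction in both.

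Interferon-induced genes fell. Type I interferon acts through a receptor that activates the factor ISGF3, which binds a response element in the promoters of antiviral genes. Irf7, a transcription factor gene that carries such an element, is shown for its RefSeq promoter. The window runs from 250 bases before to 50 bases after the gene start on the minus strand at chr1:205799974-205800273 of GRCr8, and the capitals mark the letters that match the element.

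Irf7 promoter: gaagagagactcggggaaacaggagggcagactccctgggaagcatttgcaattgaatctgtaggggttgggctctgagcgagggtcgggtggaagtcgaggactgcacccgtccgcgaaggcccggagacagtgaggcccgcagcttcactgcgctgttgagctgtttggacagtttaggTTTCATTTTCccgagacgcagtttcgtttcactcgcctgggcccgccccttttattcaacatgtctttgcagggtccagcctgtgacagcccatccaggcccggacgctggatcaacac

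The element was searched on both strands as GAAA, any 2 letters, and GAAA again. In Irf7 it matched on the strand opposite to the gene, from 69 to 60 bases before the start. It was found in 1312 of 33469 rat promoters in the table (3.92%), in 209 of 7221 promoters of genes tested (2.89%) and in 8 of the 22 NF-kB and interferon list members with a promoter there (36.4%). Of the 7 such members called lower at 500 µM, 2 held it, Irf7 and Oas1a, the gene of an oligoadenylate synthetase, and of the 2 called higher none did. These counts describe letters in the window and not binding.

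Irf7 had signals of 2569, 2874, 3438, 3112 and 2724 at 48 h, against 5301, 5906, 6054, 5926 and 4613 at 24 h. All 48 h arrays lay below all 24 h arrays (-0.92 ± 0.10, adjusted p = 3.76e-08 in limma). Isg15, a ubiquitin-like protein that is joined to other proteins after interferon, had 1994, 1800.3, 1376, 1321 and 1322 at 48 h, against 3389, 3454, 3776, 5895 and 5099.7 at 24 h. Its times did not overlap either, and the change was -1.45 ± 0.18 (adjusted p = 9.22e-07 in limma). Mx2, an antiviral GTPase (-1.20 ± 0.20, with a dim second probe set at -0.20), Usp18, which removes Isg15 from proteins and restrains the interferon receptor (-0.95 ± 0.12), and Ifitm3, which hinders virus entry (-1.13 ± 0.11), fell without overlap.

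Of the 30 tested genes of NF-kB and interferon signalling, 3 were called higher and 10 lower at 500 µM, beside 11.7% and 7.87% of all genes tested. Their median change was -0.15. With the 3'/5' β-actin covariate the counts were 3 and 10, with the arrays above the gap 3 and 8, and after median centring 3 and 11. Cxcl1, a neutrophil chemokine, had 1524, 1139.7, 1317, 879 and 1364 at 48 h, against 2834, 2131, 2909, 2923 and 4495 at 24 h (-1.28 ± 0.19, adjusted p = 1.02e-05 in limma). Il1rn, the interleukin-1 receptor antagonist, fell by 1.29 on the log2 scale (SE 0.18). At 48 h 4 of its signals lay below 469, the lowest mean signal of a gene tested, and at 24 h none did. Il1rn thus entered the test through its brighter arrays, and the size of its change is less certain. With 50 added to each signal the change of Il1rn was -1.18. Relb and Nfkb2, which encode subunits of NF-kB, rose. Relb had 1001, 943, 1305, 961 and 968 at 48 h, against 685, 409.9, 590.4, 623 and 589 at 24 h, with every 48 h array above every 24 h array (0.85 ± 0.15, adjusted p = 2.05e-04 in limma), and Nfkb2 rose by 0.68 (SE 0.14, adjusted p = 8.75e-04 in limma). The call of Nfkb2 was lost with the arrays above the gap (adjusted p = 0.148). In vehicle 3 members of this list were called higher and 11 lower, and 9 were called in the same direction at 500 µM and in vehicle.

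Most markers of other liver cells were dim at 500 µM, and a few were bright. Of the 11 named markers of Kupffer cells and leukocytes, 8 had mean signals below the dimmest gene tested (469) in both groups, Cd14 and Lyz2 were the brightest, and the summed signal of the 11 was 23977 to 26527 at 48 h, against 28129 to 32742 at 24 h. Cd14, a lipopolysaccharide co-receptor and the one of the 3 tested members that was called, fell by 0.28 (SE 0.07, adjusted p = 0.00773 in limma). The call of Cd14 was lost with the ratio as a covariate (adjusted p = 0.062). Of 12 stellate cell and fibroblast markers 9 lay below that floor in both groups, with summed signals of 3215 to 4060 at 48 h, against 3379 to 3927 at 24 h. Of 9 sinusoidal endothelial markers 8 lay below it at 48 h and 6 at 24 h, with sums of 2019 to 2368 at 48 h, against 2403 to 2733 at 24 h. Of 6 cholangiocyte markers 5 lay below it, and the sums were 11196 to 11925 at 48 h, against 9194 to 11358 at 24 h, led by Epcam, an adhesion molecule of biliary and progenitor cells, which rose by 0.21 (SE 0.05), a call lost after median centring and when only the 2 groups entered the fit. None of the lists was at 0. The part of these cells in the falls above was not tested, and fewer cells of a type and less RNA per cell cannot be told apart in whole wells. The 11 hepatocyte markers summed to 445995 to 534441 at 48 h, against 453856 to 541861 at 24 h, with 2 called lower and none higher.

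Genes of fatty acid and triglyceride synthesis rose. Of 31 tested, 16 were called higher and none lower, beside 11.7% and 7.87% of all genes tested, and the median change was 0.23 against 0.03 over all genes. With the β-actin ratio in the model 9 were called higher and with the arrays above the gap 6, none lower in either. After quantile normalisation 13 were called higher and none lower, and after median centring 9 and 1. In vehicle 6 were called higher and 7 lower, with a median of -0.08, and the difference between 500 µM and vehicle was called for 17, higher for 15.

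Fasn, fatty acid synthase, had signals of 10679.9, 9611, 12195, 13619 and 13912 at 48 h, against 7032, 7485, 6303, 7556 and 5926 at 24 h. All 48 h arrays lay above all 24 h arrays, and the change was 0.80 ± 0.13 (adjusted p = 8.85e-05 in limma). A second probe set of Fasn gave 1.13. Srebf1, whose product SREBP-1 switches on lipogenic genes, had 6262, 6016, 9658, 7486 and 8876 at 48 h, against 4528, 4995, 4949, 4601 and 4557 at 24 h (0.67 ± 0.11, adjusted p = 8.08e-05 in limma). Fads1, the Δ5 fatty acid desaturase, had 5220.4, 4404, 5190.1, 5379.8 and 5788 at 48 h, against 2922, 3098, 2350.4, 3140.1 and 2472 at 24 h, and every 48 h array was above every 24 h array (0.90 ± 0.13, adjusted p = 5.46e-06 in limma). Vehicle changes were not called for these 3 genes (0.03 ± 0.13 for Fasn, -0.08 ± 0.11 for Srebf1 and 0.26 ± 0.13 for Fads1). Each difference from vehicle was called (0.77 ± 0.19, 0.75 ± 0.16 and 0.64 ± 0.18). A dimmer second probe set of Srebf1 was not called at 500 µM (0.36), nor was its difference from vehicle (0.28).

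Lpin1, a phosphatidate phosphatase of triglyceride synthesis, rose by 0.58 (SE 0.12, adjusted p = 0.0012 in limma) and was called lower in vehicle (-0.33 ± 0.12). Pnpla3, a lipid droplet protein, had 2264, 2351, 2030.4, 2440.3 and 3105 at 48 h, against 1349, 1038, 875, 1415 and 1237 at 24 h (1.05 ± 0.19, adjusted p = 2.13e-04 in limma), with a like change in vehicle (0.93 ± 0.19). Fads2, the Δ6 desaturase, rose by 0.63 (SE 0.19, adjusted p = 0.0193 in limma), a call lost after quantile normalisation and with the arrays above the gap. Scd, the main hepatic stearoyl-CoA desaturase, was not called: its signals were 59236, 60563, 51556, 57896 and 55499.6 at 48 h, against 58978, 57429, 58997, 53640.0 and 60507 at 24 h, and the change was -0.03 ± 0.06.

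Scd2, a second stearoyl-CoA desaturase, was among the largest rises. Its brightest probe set had signals of 1383, 972, 1082, 1093 and 978 at 48 h, against 406, 368, 306, 279 and 275 at 24 h (1.76 ± 0.17, adjusted p = 3.52e-09 in limma). Every 48 h array lay above the highest 24 h array. All 5 signals at 24 h were below 469, so Scd2 too entered the test through its brighter arrays, and with 50 added to each signal the change was 1.61. The other 3 probe sets of Scd2 were dimmer and not called (0.22, 0.51 and 0.17), so the rise rests on 1 probe set. In vehicle the same probe set rose by 1.48 (SE 0.17), and the difference from vehicle was not called (0.28 ± 0.24, adjusted p = 0.37 in limma).

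Genes of fatty acid oxidation under the nuclear receptor PPAR-alpha rose in part. Ehhadh, a hydratase and dehydrogenase of peroxisomal β-oxidation, had 7987, 8346, 9086, 10310.0 and 7693 at 48 h, against 4369, 4748, 4279, 3818 and 2866 at 24 h. The 2 times did not overlap, and the mean was 8684 ± 1047 at 48 h and 4016 ± 723 at 24 h (SD, n = 5), a change of 1.13 ± 0.12 (adjusted p = 4.30e-08 in limma). In vehicle its change was 0.19 ± 0.12, not called, and the difference was 0.94 ± 0.17 (adjusted p = 1.85e-04 in limma). Cyp4a1, a fatty acid ω-hydroxylase, had 23223, 21766, 25546, 29172 and 21277 at 48 h, against 14853, 16480.0, 15791, 18215 and 15185 at 24 h (0.58 ± 0.11, adjusted p = 5.05e-04 in limma), with 0.66 ± 0.11 in vehicle. Both are among the 16 peroxisomal and ω-hydroxylation genes tested, of which 3 were called higher and none lower, beside 11.7% and 7.87% of all genes tested. In vehicle 6 of these 16 were called higher and 1 lower, with a median of 0.16, against 0.11 at 500 µM.

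Of the 19 other PPAR-alpha targets of fuel and lipid handling tested, 8 were called higher and 1 lower, beside 11.7% and 7.87% of all genes tested. Their median was 0.23 at 500 µM and 0.30 in vehicle. At 500 µM and in vehicle 8 members were called in the same direction. Vnn1, a pantetheinase (0.48 ± 0.07), Creb3l3, a liver transcription factor of the fasting response (0.40 ± 0.06), and Fabp1, a cytosolic carrier of fatty acids (0.31 ± 0.06), rose without overlap. Acsl1, a long-chain acyl-CoA synthetase, rose by 0.32 (SE 0.07), the second largest of the 5 rises among 22 mitochondrial oxidation and ketone body genes, none of which was called lower. The count of 5 became 11 after quantile normalisation and 2 after median centring. Pdk4, which restrains pyruvate dehydrogenase, was called lower (-0.23 ± 0.08, adjusted p = 0.0346 in limma), a call lost after quantile normalisation and in 6 of 10 analyses that left out 1 array. Angptl4, an inhibitor of lipoprotein lipase (0.12 ± 0.06), and Cpt1a, the carnitine palmitoyltransferase that gates mitochondrial oxidation (0.14 ± 0.10), were not called, although Angptl4 was after quantile normalisation.

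Cholesterol synthesis genes were split, with 4 of 23 called higher and 6 lower, beside 11.7% and 7.87% of all genes tested, and a median of -0.05. With the ratio as a covariate none was called higher and 5 lower, and with the arrays above the gap none and 3. The lower ones included Tm7sf2, a sterol Δ14-reductase (-0.50 ± 0.07), Ebp, the sterol isomerase (-0.49 ± 0.08), and Idi1, isopentenyl diphosphate isomerase (-0.47 ± 0.09), each with all 48 h arrays below the 24 h arrays. Insig2, which holds SREBP precursors in the endoplasmic reticulum, had 19422, 22832, 17696, 24131 and 22424 at 48 h, against 28088, 26632, 26689, 31664 and 34660.0 at 24 h (-0.47 ± 0.09, adjusted p = 5.94e-04 in limma), and this call was lost with the arrays above the gap (adjusted p = 0.0896). None of the 4 was called in vehicle (-0.15, -0.15, -0.13 and 0.11). A second probe set of Insig2, nearly as bright, was not called at 500 µM (-0.22), nor was a dimmer one of Idi1 (-0.21). Differences from vehicle were not called for these 2 probe sets either (0.05 and 0.10).

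**Figure D3:**
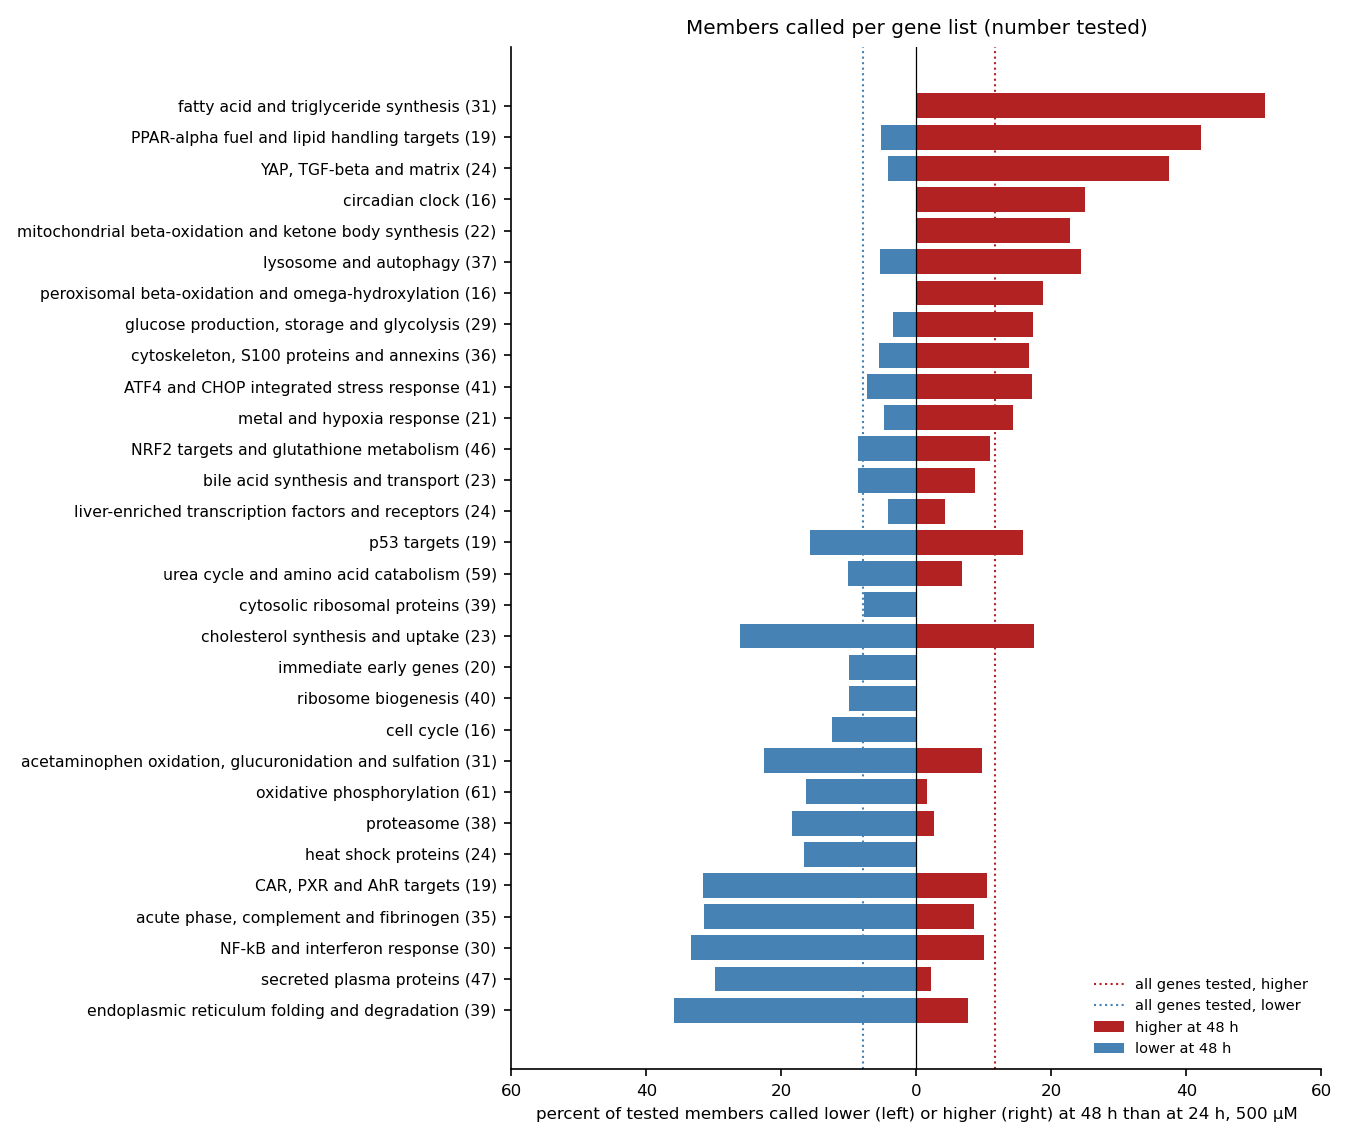
For each of 30 gene lists (vertical axis, number of members tested in brackets) the bars give the percent of tested members called higher (right) or lower (left) at 48 h than at 24 h at 500 µM. Dotted lines mark all genes tested, 11.7% higher and 7.87% lower. Fatty acid and triglyceride synthesis, at the top, had 16 of 31 members higher, and endoplasmic reticulum folding and degradation, at the bottom, 14 of 39 lower.

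Matrix, growth factor and cytoskeletal genes gave several of the largest rises. Serpine2, a secreted inhibitor of thrombin and plasminogen activators, had 2456, 2727, 2539.6, 2592 and 2112 at 48 h, against 912, 1201, 989.7, 1109 and 1231 at 24 h, without overlap (1.20 ± 0.10, adjusted p = 1.50e-10 in limma). In vehicle it rose by 1.61 (SE 0.10), and the difference was called (-0.42 ± 0.14, adjusted p = 0.0198 in limma). Tgfb2, a transforming growth factor β ligand, had 885, 840.1, 815, 717 and 879 at 48 h, against 393, 207, 419.8, 217 and 403 at 24 h (1.40 ± 0.20, adjusted p = 9.03e-06 in limma), while its dimmer second probe set was not called (0.25). All 5 signals at 24 h were below 469, and with 50 added to each signal the change was 1.26. Il1rn at 48 h and Ptov1 at 24 h each had 4 of 5 signals below 469. Acta1, skeletal muscle α-actin, had 3471, 2979.6, 3759, 1939.5 and 2189.8 at 48 h, against 1041, 1043, 918, 969 and 1334 at 24 h (1.40 ± 0.18, adjusted p = 1.41e-06 in limma). For Tgfb2 (0.20) and for Acta1 the difference from vehicle was not called. Of 24 tested genes of YAP, TGF-β and matrix, 9 were called higher and 1 lower, beside 11.7% and 7.87% of all genes tested. Their medians were 0.27 at 500 µM and -0.10 in vehicle, and 3 were called in the same direction in both. With the ratio as a covariate 7 were called higher and 1 lower (median 0.13), and with the arrays above the gap 4 and none (median 0.06).

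Col18a1, a basement membrane collagen, rose by 0.66 (SE 0.15), with a second probe set at 0.56, and was called lower in vehicle (-0.60 ± 0.15). The call of Col18a1 was lost with the arrays above the gap. S100a6, a calcium-binding protein, fell: its signals were 6161, 5778, 4629, 3801 and 3916 at 48 h, against 10701, 10609, 9466, 9486 and 10936 at 24 h, with no overlap (-1.10 ± 0.12, adjusted p = 2.55e-08 in limma). In vehicle its change was -0.20 ± 0.12, not called, and the difference was -0.90 ± 0.16 (adjusted p = 1.60e-04 in limma). Ldhb, the heart-type lactate dehydrogenase subunit (0.95 ± 0.08), Clec14a, a C-type lectin known from endothelium (1.05 ± 0.15), Tsx (1.20 ± 0.16), Klhl13, an adaptor of a ubiquitin ligase (0.90 ± 0.12), and Dpp7, a lysosomal dipeptidase (0.90 ± 0.17), were further large rises, and all 5 also rose in vehicle. The call of Dpp7 was lost with the arrays above the gap (adjusted p = 0.0717). Grn, the lysosomal growth factor precursor progranulin, rose by 0.58 (SE 0.07). Of 37 lysosome and autophagy genes 9 were called higher and 2 lower, beside 11.7% and 7.87% of all genes tested.

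Gucy2c, the membrane guanylate cyclase that is the intestinal receptor for guanylin, rose at 500 µM and did not pass the test in vehicle. Its signals were 5870.4, 5527, 5808, 5894 and 6950.4 at 48 h, against 3329.9, 2768, 2457, 2528 and 2328 at 24 h, and in vehicle 4451, 5619.6, 4256, 5166 and 5359 at 48 h, against 4441, 5199, 4221, 4193 and 4598 at 24 h. The 5 arrays of 500 µM at 24 h thus lay below those of the other 3 groups, and the 48 h arrays of 500 µM and of vehicle overlapped (1.17 ± 0.10, adjusted p = 2.86e-10, against 0.13 in vehicle, adjusted p = 0.334, in limma). The difference was 1.04 ± 0.14 (adjusted p = 1.80e-05 in limma).

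Of the genes of endoplasmic reticulum folding and degradation that were called, most were lower. Of 39 tested, 3 were called higher and 14 lower, with a median of -0.11, beside 11.7% and 7.87% of all genes tested. After median centring 1 was called higher and 18 lower, and after quantile normalisation 4 and 10. In vehicle 6 were called higher and 12 lower, with a median of -0.06, and 2 were called in the same direction at 500 µM and in vehicle. With the ratio as a covariate 10 were called lower and with the arrays above the gap 2, none higher in either. Creld2, a target of the unfolded protein response, had 2375, 2541, 2651, 2498 and 2324 at 48 h, against 4193, 4383, 4438, 4272 and 4168 at 24 h, far apart (-0.79 ± 0.08, adjusted p = 6.45e-09 in limma), and Sdf2l1, a cochaperone of BiP, fell by 0.62 (SE 0.06). Their differences from vehicle, -0.40 for Creld2 and -0.33 for Sdf2l1, were smaller in size than these changes. Ddit3, which encodes the stress factor CHOP, had 4498, 4696, 4288, 4169 and 5029 at 48 h, against 5951, 5390.1, 5720.1, 5065 and 6984 at 24 h (-0.35 ± 0.08, adjusted p = 0.0029 in limma), with 0.11 ± 0.08 in vehicle.

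In the ATF4 and CHOP list 7 of 41 genes were called higher and 3 lower, beside 11.7% and 7.87% of all genes tested. With the ratio as a covariate 6 were called higher and 2 lower, and with the arrays above the gap 4 and 1. The 7 called higher included enzymes of mitochondrial one-carbon and serine metabolism: Mthfd2 (0.61 ± 0.15), Aldh1l2 (0.53 ± 0.11) and Phgdh (0.44 ± 0.09). Mthfd2 had 3336, 2958, 2219, 2469 and 2948 at 48 h, against 1601, 1392, 2454, 2524 and 1406 at 24 h, so 2 arrays at 24 h, replicates 3 and 4, lay within the 48 h range. Of 46 NRF2 targets and glutathione genes 5 were called higher and 4 lower, with a median of -0.03, a share near the 19.6% of all genes tested. With the ratio as a covariate 2 were called higher and 1 lower, and with the arrays above the gap 1 and none. Gclm, the modifier subunit of the enzyme that limits glutathione synthesis, had 23496, 18648, 22332, 22474 and 21131 at 48 h, against 26109, 24616, 26412, 31203 and 27122 at 24 h (-0.33 ± 0.07, adjusted p = 0.0029 in limma), a call lost with the arrays above the gap. Nqo1, a quinone reductase, was called lower (-0.26 ± 0.07, adjusted p = 0.0121 in limma) and lost the call with the ratio as a covariate (adjusted p = 0.0943). Gclc, the catalytic subunit (0.11 ± 0.06), and Hmox1, heme oxygenase 1 (-0.13 ± 0.08), were not called.

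Liver metabolism outside lipids had shares of called genes below but near the 19.6% of all genes tested. Of 59 urea cycle and amino acid genes 4 were called higher and 6 lower, with a median of -0.01. Gpt, alanine aminotransferase, had 6494, 7698, 8816, 7809 and 5168 at 48 h, against 12045, 13087, 11589, 9129.9 and 10904 at 24 h, without overlap (-0.67 ± 0.13, adjusted p = 7.20e-04 in limma), and Aass, the first enzyme of lysine breakdown, fell by 0.56 (SE 0.12). Of 23 bile acid genes 2 were called higher and 2 lower. Slc10a1, the bile acid uptake carrier NTCP, fell by 0.45 (SE 0.11, adjusted p = 0.00489 in limma). Abcb11, the bile salt export pump, had 30495, 32428, 30549, 32065 and 29542 at 48 h, against 28428, 28879, 28555, 21483 and 21385 at 24 h (0.28 ± 0.10, adjusted p = 0.035 in limma), and 12 of 22 alternatives lost this call, among them the median centring and the ratio as a covariate (adjusted p = 0.268). Cyp7a1, which limits bile acid synthesis, was not called (0.14 ± 0.19, adjusted p = 0.641 in limma). Apoa5, whose product promotes triglyceride clearance from plasma, changed by -0.31 ± 0.07 (adjusted p = 0.00382 in limma).

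Small changes marked the genes of oxidative phosphorylation, the proteasome and the ribosome. Over all genes tested 11.7% were called higher and 7.87% lower at 500 µM. Of 61 oxidative phosphorylation genes 1 was called higher and 10 lower at 500 µM, while 20 were called higher and none lower in vehicle, with medians of -0.08 and 0.12. Of 38 proteasome genes 1 was called higher and 7 lower, against 12 and 3 in vehicle. Of 39 cytosolic ribosomal protein genes 3 were called lower and none higher, against 6 higher and none lower in vehicle. The share of ribosomal protein genes called lower at 500 µM was near that of all genes tested. With the ratio as a covariate the 500 µM counts became 1 and 2 for oxidative phosphorylation, 1 lower for the proteasome and 0 for ribosomal proteins. Ndufb2, a subunit of complex I, changed by -0.19 ± 0.05, and Psma2, a proteasome core subunit, by -0.33 ± 0.07, and both lost their calls with the arrays above the gap. After median centring 13 oxidative phosphorylation genes were called lower and none higher, and after quantile normalisation 9 and 4.

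Vehicle cells changed over the same day in 2770 genes (32.5%), 1145 higher and 1625 lower at 48 h. The split was 1695 and 1215 after median centring and 1398 and 1443 after quantile normalisation. These arrays share none with the 500 µM comparison. Of the 1668 genes called at 500 µM, 763 were also called in vehicle, which is 45.7% of those called at 500 µM and 27.5% of those called in vehicle. They went in the same direction for 263 genes, 142 higher and 121 lower in both, and in opposite directions for 500, of which 355 were higher and 145 lower at 500 µM. The large changes were on the same-direction side: 24 of its 263 genes changed by 2-fold or more at 500 µM, against 1 of the 500. The median size of the change at 500 µM was 0.40 for same-direction and 0.33 for opposite-direction genes. With the β-actin ratio in both models, 143 genes were called in the same direction and 3 in opposite directions, and the ratio itself moved in opposite directions at 500 µM (0.25) and in vehicle (-0.53).

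**Figure D4:**
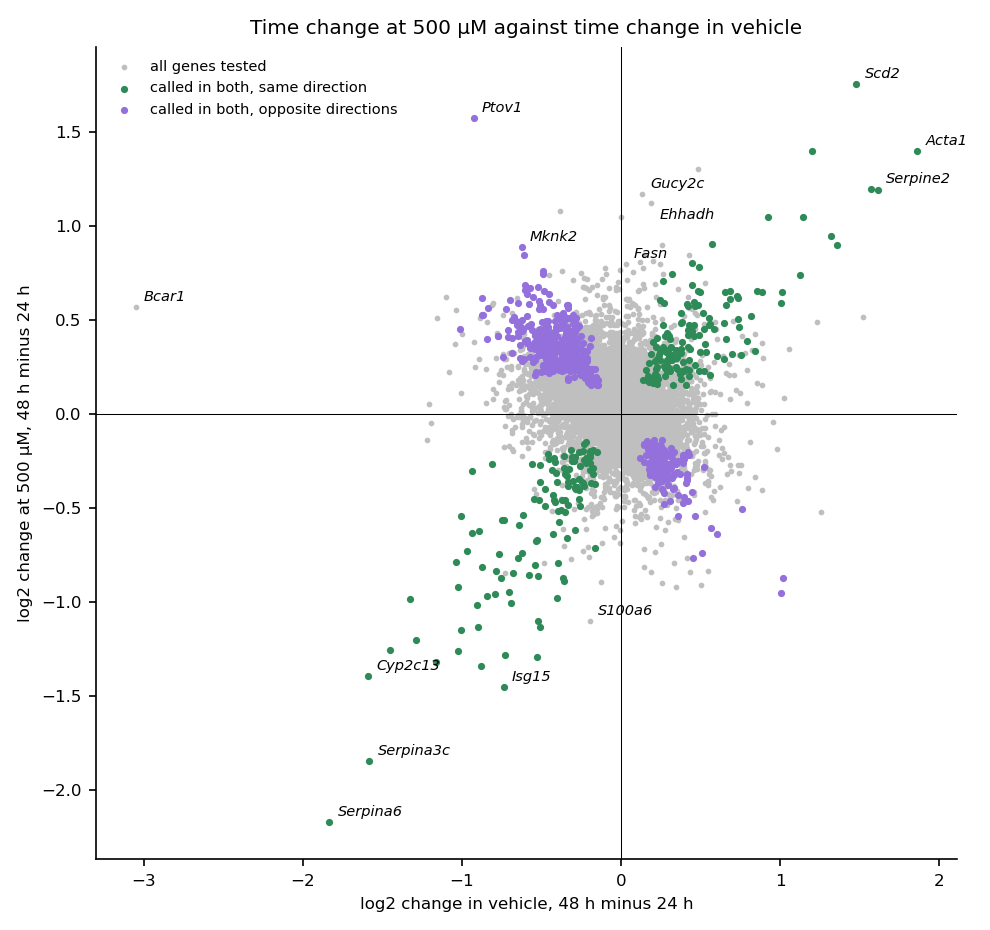
Each point is 1 of the 8531 genes tested, with the log2 change from 24 to 48 h in vehicle on the horizontal axis and at 500 µM on the vertical axis. Green points are the 263 genes called in both in the same direction, and purple points the 500 called in opposite directions, of which Ptov1 alone changed by 2-fold or more at 500 µM. Bcar1 has the lowest vehicle change (-3.05), with all its vehicle signals at 48 h below 469, the lowest mean signal of a gene tested.

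The test of the difference itself, the 500 µM change minus the vehicle change, called 3126 genes (36.6%), 1886 higher (22.1%) and 1240 lower (14.5%). After median centring it called 1292 higher and 2054 lower, and after quantile normalisation 1513 and 1551. With the ratio as a covariate it called 3 (0.0352%), Fam20c and Nol9 higher (0.0234%) and Selenoh lower (0.0117%), which are named because the count is small, and with the side of the gap as a block 682. All 5 vehicle arrays at 48 h lay below the gap and all 5 of 500 µM at 48 h above it, so that at 48 h the ratio and the treatment cannot be told apart. Each difference from vehicle given here carries that limit. Of the 1668 genes called at 500 µM, 1154 differed from vehicle and 514 did not. Among the 15 largest falls 14 were called in the same direction in vehicle and 5 differed from it, and among the 15 largest rises 10 were called in the same direction and 7 differed.

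The size of single differences was kept in part with the covariate. The difference was 0.94 for Ehhadh without the covariate and 0.67 with it (adjusted p = 0.147 in limma), 1.04 and 0.81 for Gucy2c (adjusted p = 0.0537), -0.90 and -0.91 for S100a6 (adjusted p = 0.0733), and 0.77 and 0.72 for Fasn (adjusted p = 0.169). For Lpin1 it was 0.91 without and 0.26 with it (adjusted p = 0.392 in limma). The largest difference was that of Bcar1, the adaptor protein p130Cas, at 3.62 ± 0.68 (adjusted p = 2.06e-04 in limma). In vehicle Bcar1 had 155, 157, 154, 169.9 and 119.8 at 48 h, against 1492, 1109.8, 1129, 1119 and 1427 at 24 h, and at 500 µM 1017, 227, 1294, 926 and 1279 at 48 h, against 859, 902, 880.2, 160.1 and 447 at 24 h. At 500 µM replicate 2 at 48 h and replicates 4 and 5 at 24 h were thus low and the other arrays lay higher, and the change at 500 µM was not called (0.57 ± 0.48). All 5 vehicle signals of Bcar1 at 48 h lay below 469, the lowest mean signal of a gene tested. Bcar1 thus entered the test through its brighter arrays, and the size of its difference is less certain.

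Other large differences were those of Ptov1 (2.50 ± 0.48), the transcription factor gene Nfic (1.59 ± 0.34), Mknk2, a kinase of the cap-binding factor eIF4E (1.51 ± 0.25), and Trak2, an adaptor of mitochondrial transport (1.00 ± 0.16), all higher at 500 µM relative to vehicle. Ptov1 had 983, 868, 1566, 872 and 917 at 48 h, against 694, 419, 226, 179 and 387 at 24 h (1.57 ± 0.34, adjusted p = 0.00145 in limma), with a wide spread at 24 h. Mknk2 had 5124, 4249, 8493, 5597 and 5109 at 48 h, against 3831, 4150.4, 3599, 2569.8 and 1649 at 24 h (0.89 ± 0.18, adjusted p = 7.80e-04 in limma), with the lowest signals on the 24 h replicates 4 and 5, those below the ratio gap. Its call was lost with the arrays above the gap (adjusted p = 0.0973). Entr1, an endosomal trafficking gene (-1.95 ± 0.38), and Cds2, a CDP-diacylglycerol synthase (-1.41 ± 0.30), were lower. At 500 µM 2 of the 48 h signals of Cds2 and 1 of Entr1 lay below 469, the lowest mean signal of a gene tested. Entr1 had 488, 637, 352, 748 and 917 at 48 h, against 909.5, 754, 843, 1795 and 1935 at 24 h, again with replicates 4 and 5 at 24 h apart from the other 24 h arrays.

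At 5000 µM, 2293 genes were called over the same interval (26.9%), 925 higher and 1368 lower. Of the 1668 called at 500 µM 612 were called there too, 36.7% of those at 500 µM and 26.7% of those at 5000 µM, 491 in the same direction and 121 in opposite directions. The difference between the doses, 500 minus 5000 µM, was called for 1851 genes (21.7%), 1214 higher (14.2%) and 637 lower (7.47%). After median centring the split was 551 higher and 1159 lower, and after quantile normalisation 715 and 701. With the 3'/5' β-actin ratio as a covariate 905 genes were called. All 5 arrays of 5000 µM at 48 h lay below the ratio gap and all 5 of 500 µM at 48 h above it. At 48 h the ratio and the dose thus cannot be told apart, and each difference between doses given here carries that limit.

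Several PPAR-alpha targets rose less at 500 than at 5000 µM. Fabp1 changed by 0.31 at 500 µM and 1.54 at 5000 µM (difference -1.23 ± 0.09, adjusted p = 1.86e-11 in limma), Cyp4a1 by 0.58 and 1.86 (difference -1.27 ± 0.16), and Ehhadh by 1.13 and 2.10 (difference -0.98 ± 0.17). Of the 16 peroxisomal genes 3 were called higher at 500 µM and 11 at 5000 µM, and 7 differed between doses, all lower at 500 µM. The peroxisomal hydroxy acid oxidases Hao1 (0.32 at 500 µM, 1.62 at 5000 µM) and Hao2 (-0.06 and 1.41) were not called at 500 µM, although Hao1 was with the ratio as a covariate or with its side of the gap as a block. Sult2a6, a sulfotransferase, differed in the same way, with -0.22 at 500 µM and 2.05 at 5000 µM (difference -2.27 ± 0.33, adjusted p = 1.98e-05 in limma).

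Differences in the other direction included Cyp2c12, a female-type P450 (-0.84 at 500 µM, not called, and -2.34 at 5000 µM, difference 1.49 ± 0.48), and Ndrg1, a stress-regulated gene (0.27, not called, and -1.17, difference 1.44 ± 0.22). Cyp2c12 was called lower at 500 µM when only its 2 groups entered the fit, after quantile normalisation, with 50 added to the signals and with the arrays above the gap. C9 and A2m fell less at 500 µM (-0.67 and -0.78) than at 5000 µM (-1.66 and -1.79), with differences of 0.99 ± 0.12 and 1.01 ± 0.20. Trak2 rose at 500 µM (0.75) and fell at 5000 µM (-0.47). Cxcl1 fell at 500 µM (-1.28) and was not called at 5000 µM (-0.13), and the difference was -1.15 ± 0.26 (adjusted p = 0.00262 in limma). Spc24, a kinetochore protein, was called lower at 500 µM (-0.47) and higher at 5000 µM (0.86, difference -1.33 ± 0.22), and its call at 500 µM was lost when only the 2 groups entered the fit and in 5 of 10 analyses that left out 1 array.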

How the data were processed

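Each of the 30 arrays measured total RNA of 1 well of rat hepatocytes. The deposited value table holds 1 intensity per probe set and array, the linear MAS5 signal made by the authors, as named by the submitters' processing notes. No source used here states the MAS5 version, the scaling target or the scan batches. Trimmed means (2%) ran from 1500.55 to 1500.66 on the 30 arrays, so a common scaling preceded deposit, and only a log2 transformation was added. Of 31099 probe sets, 57 controls were left out, 20826 had 1 gene symbol in the platform annotation, 436 had several and 9780 were unnamed here. Symbols were updated through Entrez identifiers for 20758 probe sets. The brightest probe set by mean log2 signal stood for each of 14217 genes, and the brightest 60%, 8531, were tested. The lowest geometric mean signal among them was 469.

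In limma 3.58.1 (R 4.3.3) a linear model gave each of the 6 groups its mean over all 30 arrays (24 residual and 7.58 prior degrees of freedom, eBayes with an intensity trend), with Benjamini-Hochberg adjustment over all genes tested. The fit was also run on simulated data with known changes, and the outcome is not given here. Ratios of control probe sets were compared with exact permutation tests over arrays. Arrays were grouped by title, and replicate numbers follow accession order and name arrays only. Log2 signals of pairs of replicates correlated between 0.975 and 0.993 at 500 µM, and no pair was a duplicate. The number of arrays limits the precision.

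The comparison, the gene lists and the promoter motif were chosen with earlier results of these data known, so a pattern is not independent evidence because a list shows it. Genes are named by this rule: the 15 largest rises and 15 largest falls among called genes whose 2 times do not overlap, the 8 largest differences in each direction from vehicle and from 5000 µM, up to 6 called members of a list and up to 4 that differed from vehicle, and a fixed set of genes for the compound and for hepatocytes. Not all of these are named, and among the genes so found those whose other probe sets were called the opposite way were left out. Alternatives changed the scaling, the low-signal filter, the probe sets per gene, the log offset (50 added to the signal), the variance model, the arrays in the fit, the use of the 3'/5' β-actin ratio and, added after seeing the data, a block of title serials. Promoter sequence is RefSeq's, on GRCr8. Background correction could not be varied from the value table.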

Additional observations from a re-analysis of the deposited data

Results flagged for a closer look

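Of 208 groups of 5 arrays checked for the genes named, 18 held 1 array far from the other 4 relative to the group's range. Chance sets apart about 1 group in 20. At 24 h, replicate 4 stood apart for A2m (signal 30109), Aass (signal 5919), Clec14a (signal 738), Cyp2c23 (signal 9352), Mx2 (signal 3763) and Sult2a6 (signal 2789). At 48 h, replicate 3 stood apart for Col18a1 (signal 8368), Creb3l3 (signal 15879), Psma2 (signal 15163), Ptov1 (signal 1566) and Relb (signal 1305). At 48 h, replicate 2 stood apart for Bcar1 (signal 227) and Sult1a1 (signal 84471). At 24 h, replicate 1 stood apart for C9 (signal 8438). At 24 h, replicate 5 stood apart for Rup2 (signal 67709). At 48 h, replicate 1 stood apart for Cyp2c7 (signal 1984). At 48 h, replicate 4 stood apart for Slc10a1 (signal 9566). At 48 h, replicate 5 stood apart for Gucy2c (signal 6950.4).

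Over all genes tested, 3126 differed between 500 µM and vehicle and 1851 between 500 and 5000 µM. Of the 102 genes named, the time change at 500 µM differed from that in vehicle in limma for 48, with these log2 differences. It lay above that in vehicle for Abcb11 (0.90), Acsl1 (0.30), Aldh1l2 (0.73), Bcar1 (3.62), Col18a1 (1.26), Cpt1a (0.54), Cyp3a2 (0.34) and Ehhadh (0.94). It also lay above for Fads1 (0.64), Fasn (0.77), Gclc (0.25), Gucy2c (1.04), Lpin1 (0.91), Mknk2 (1.51), Mthfd2 (0.56) and Nfic (1.59). It also lay above for Nfkb2 (0.86), Per1 (0.81), Ptov1 (2.50), Relb (0.71), Scd (0.26), Srebf1 (0.75), Trak2 (1.00) and Ugt2b10 (0.46). It lay below that in vehicle for Apoa5 (-0.50), C6 (-0.53), C8g (-0.51), Cds2 (-1.41), Creld2 (-0.40), Ddit3 (-0.46), Ebp (-0.34) and Entr1 (-1.95). It also lay below for Epcam (-0.35), Gclm (-0.45), Idi1 (-0.34), Ifitm3 (-0.62), Il1rn (-0.76), Insig2 (-0.59), Isg15 (-0.72) and Ldhb (-0.37). It also lay below for Ndufb2 (-0.25), Nr1i3 (-0.45), Psma2 (-0.56), S100a6 (-0.90), Sdf2l1 (-0.33), Serpine2 (-0.42), Spink1l (-0.46) and Tm7sf2 (-0.35). With the 3'/5' β-actin ratio as a covariate 3 of all genes tested differed from vehicle, none of them among these. The 48 differences are those of the brightest probe sets. Dimmer ones of Insig2 (0.05), Idi1 (0.10) and Srebf1 (0.28), among others, were not called.

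Of the 102 genes named, the time change at 500 µM differed from that at 5000 µM in limma for 43, with these log2 differences. It lay above that at 5000 µM for A2m (1.01), Aldh1l2 (0.56), Apoa2 (0.28), C9 (0.99), Cpt1a (0.67), Cyp2c12 (1.49), Gpt (0.84) and Gucy2c (0.46). It also lay above for Ifitm3 (0.70), Lpin1 (0.67), Mknk2 (0.69), Mthfd2 (0.75), Ndrg1 (1.44), Nfic (1.41), Pdk4 (0.64) and Per1 (0.57). It also lay above for S100a6 (0.75) and Trak2 (1.22). It lay below that at 5000 µM for Cd14 (-0.39), Cds2 (-0.90), Creld2 (-0.48), Cxcl1 (-1.15), Cyp4a1 (-1.27), Ehhadh (-0.98), Fabp1 (-1.23) and Fads1 (-0.72). It also lay below for Gstm7 (-0.40), Hao1 (-1.29), Hao2 (-1.47), Insig2 (-0.54), Ndufb2 (-0.29), Nr1i3 (-0.63), Pnpla3 (-0.72) and Psma2 (-0.40). It also lay below for Sdf2l1 (-0.31), Serpina3l (-0.32), Slc10a1 (-0.93), Spc24 (-1.33), Sult2a6 (-2.27), Tm7sf2 (-0.54), Tsx (-0.63) and Ugt2b10 (-0.70). It also lay below for Vnn1 (-0.31). These differences carry the limit given above, that at 48 h the 3'/5' ratio and the dose cannot be told apart.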

How the results depend on the processing

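The time change at 500 µM called 1668 genes. It called 993 when only its own 2 groups entered the fit, 766 with the 3'/5' β-actin ratio as a covariate, 877 with the side of the ratio gap as a block and 312 with only the arrays above the gap, where fewer arrays enter the fit. The cause of the other drops was not tested. The vehicle change called 2770 genes, 440 with the covariate and 1190 with the block. The difference from vehicle called 3126 genes, 3 with the covariate and 682 with the block. The difference from 5000 µM called 1851 genes, 905 with the covariate and 1043 with the block. The fit above the gap could not be run for the last 3 comparisons, since no vehicle array at 48 h and none of 5000 µM at 48 h lay above it. Scaling, filter, probe set, offset and trend alternatives kept each of these counts within 1.5 times. Leaving out 1 array gave 980 to 1817 genes at 500 µM, 2285 to 2658 in vehicle, 2642 to 3226 for the difference from vehicle and 1389 to 1954 for that from 5000 µM. The ratio difference at 500 µM, 0.25, ranged from 0.16 to 0.35 without 1 array (exact permutation p from 0.0238 to 0.357). It was 0.11 for GAPDH (exact permutation p = 0.0397, adjusted p = 0.0794). No called gene named here changed direction under any alternative. The titles carry serial numbers that run in 5 sets of 6 arrays, each with 1 array of every group. With these sets as a replicate block, chosen after seeing the data, 1920 genes were called at 500 µM, 2983 in vehicle, 3363 for the difference from vehicle and 2059 for that from 5000 µM, each within 1.5 times. No label says that a set shares a culture or a day, so the main fit did not pair the arrays by set. Deviations of 48 h and 24 h arrays of a set at 500 µM correlated between -0.12 and 0.24 (median 0.05 over 5 pairs, 2 of them over 0.1). At 500 µM 5 of 10 arrays were closest to their own set. Over all groups 31 of 75 pairs within a set were over 0.1 (median 0.06), against 53 of 300 pairs across sets (median -0.02). Pairs within a set thus exceeded 0.1 more often. Median 3'/5' β-actin ratios of the 5 sets were 1.77, 1.53, 1.53, 1.23 and 1.28. What the arrays of a set share was not tested.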

Other observations

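Further gene lists are given beside the 11.7% of all genes tested that were called higher and the 7.87% called lower at 500 µM. Of 16 circadian clock genes 4 were called higher and none lower, against none higher and 9 lower in vehicle, and the difference from vehicle was called for 7, all higher at 500 µM. Per1, a repressor in the clock loop, rose by 0.50 at 500 µM (SE 0.14, adjusted p = 0.0105 in limma) and its vehicle change was -0.31 ± 0.14. Its call was lost when the fit included the 3'/5' ratio (adjusted p = 0.0843 in limma), and 1 clock gene was called higher. Of 24 heat shock genes none was called higher and 4 lower. Of 19 p53 targets 3 were called higher and 3 lower, of 16 cell cycle genes none higher and 2 lower, and of 20 immediate early genes none higher and 2 lower. Of 40 ribosome biogenesis genes none was called higher and 4 lower, against 6 and 8 in vehicle. Of 24 liver-enriched transcription factors and receptors 1 was called higher and 1 lower at 500 µM, against 1 and 10 in vehicle. Of 29 genes of glucose production, storage and glycolysis 5 were called higher and 1 lower, of 21 metal and hypoxia genes 3 and 1, and of 36 cytoskeleton, S100 and annexin genes 6 and 2.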
